A study of Mus musculus with 6 samples.

Results

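The adhesion G protein-coupled receptors of the ADGRG and ADGRE subfamilies were followed in mouse pre-B cells transformed by BCR-ABL1, the oncogenic kinase that drives this leukemia model. The list held 7 receptors, Adgrg1, Adgrg2, Adgrg3, Adgrg5, Adgrg6, Adgre1 and Adgre5. They were chosen by family name, as probes annotated to exactly 1 of these symbols in the deposited values, and a gene's probe was selected on brightness, among 19938 genes in all. A probe was found for 6 of the 7, with 1 probe each, so brightness decided nothing among them. Adgrg5 was not analysed here. The family was put forward with the falls of Adgrg1 and Adgrg3 between the groups compared here already known. The receptors' values are therefore given as a description, without p-values.

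The 6 arrays held 3 samples transduced with pMIG, the control vector, and 3 transduced with Blnk. Blnk, also called Slp65, is an adaptor that passes the pre-B cell receptor signal from SYK to BTK and PLCG2. All 6 came from cells labelled Blnk KO, from Balb/c mice aged 4 weeks, and all were sorted for GFP 5 days after transduction. By these labels the pMIG cells carry the knockout and the vector alone, and receptor transcripts were compared between them and knockout cells given Blnk. Nothing in the labels ties the replicates to distinct cultures or mice, so p-values and errors reflect array-to-array spread alone, part or all of which may be technical. In RNA from sorted bulk cells, fewer cells with a transcript and less transcript per cell cannot be told apart.

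Adhesion receptors carry a long extracellular part that binds matrix proteins or other cells, joined to a membrane-spanning part that couples to G proteins. Many cut themselves next to the membrane in a domain called GAIN, and the newly exposed end can act as a tethered activator of the same receptor. In blood cells, ADGRG1 marks stem cells and some cytotoxic lymphocytes, ADGRG3 and ADGRG5 are found on granulocytes, ADGRE1 (F4/80) marks mouse macrophages, and ADGRE5 (CD97) is present on many leukocytes. ADGRG3 is also listed under the older name Pb99.

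Values are intensities on a linear scale, and differences are mean log2 intensity with Blnk minus that with pMIG, with the standard error (SE) of limma's fit over all genes. The array medians lay between 67.0 and 70.0, which serves below as a rough guide to dimness, since probes differ in brightness at equal RNA. A gene was called changed at a Benjamini-Hochberg adjusted p under 0.05 over all 19938 genes. By that rule 2 of the 6 measured receptors were lower with Blnk, Adgrg1 and Adgrg3, and 4 passed in neither direction. The rule called 3.61% of all genes, 1.1% lower and 2.51% higher (1.64% and 2.06% after repeated quantile normalization). The median log2 difference of the 6 receptors was -0.02, beside 0 over all genes tested. The arrays of both groups did not overlap for Adgrg1 and Adgrg3, and they overlapped for the other 4. Over all genes, 8.15% had all Blnk arrays below all pMIG arrays. Since the receptors were chosen with this contrast known, nothing is read from their counts.

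Adgrg3 (Gpr97), which is known to couple to the G protein Go, went from 1228, 1192 and 1265 on the pMIG arrays to 349, 303 and 297 on the Blnk arrays. Every Blnk array lay far below every pMIG array, and within each group the arrays stayed close together. The group means were 1228 ± 36.5 (SD, n = 3) and 316 ± 28.4 (SD, n = 3), a 3.89-fold lower intensity with Blnk (log2 difference -1.96, SE 0.083). Between the lowest pMIG and the highest Blnk array there was a gap of 1.77 on the log2 scale. It was the second largest fall among all genes. The difference ranged from -2.03 (without Blnk 1) to -1.92 (without Blnk 3) with 1 array left out.

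Adgrg1 (Gpr56), which binds collagen III and transglutaminase and acts through the G proteins Gna12 and Gna13, went from 494, 474 and 517 on the pMIG arrays to 200, 194 and 184 on the Blnk arrays. Again the groups were well apart and each was tight. Means were 495 ± 21.5 (SD, n = 3) and 193 ± 8.08 (SD, n = 3), 2.57-fold lower with Blnk (log2 difference -1.36, SE 0.071), with a gap of 1.24 between the groups. This was the fall of rank 12 among all genes. With 1 array left out the difference lay between -1.39 and -1.33.

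**Figure D1:**
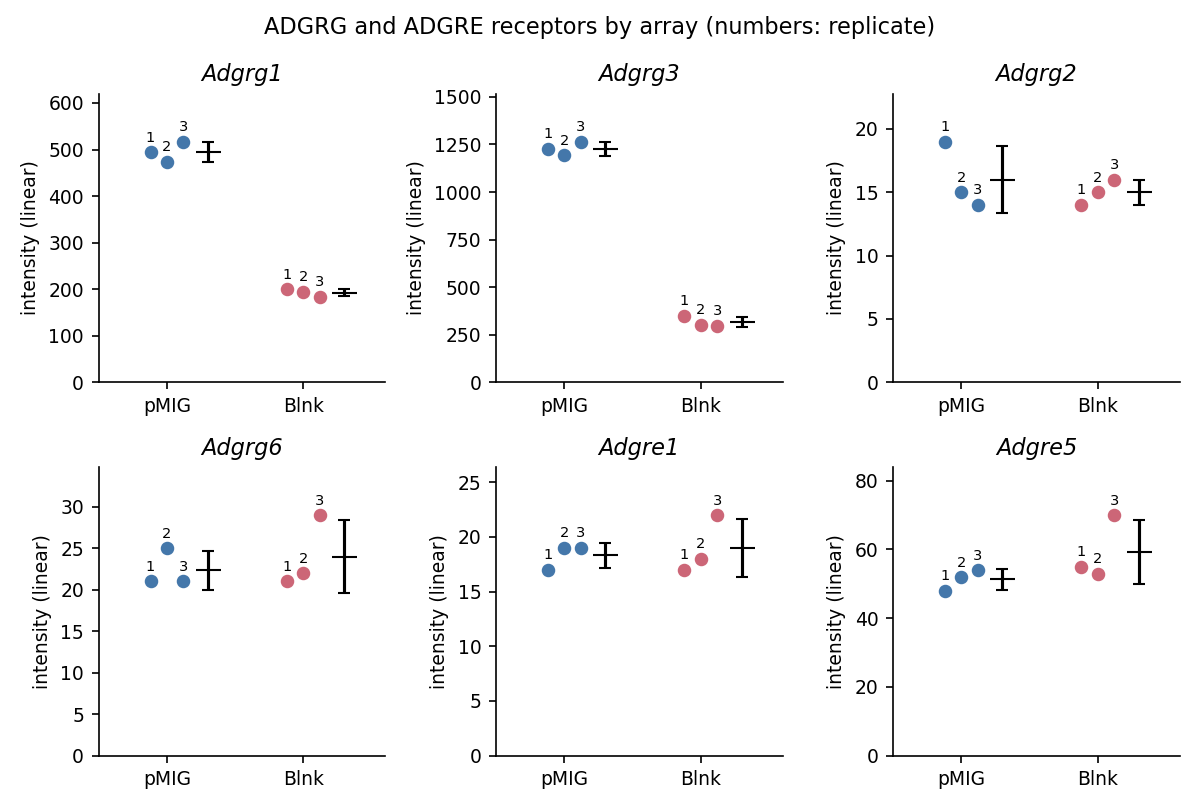
Intensity (linear scale, vertical axis from 0 in each panel) of the 6 measured ADGRG and ADGRE receptors on the 3 pMIG and 3 Blnk arrays, with replicate numbers beside the points and mean ± SD in black. Adgrg1 and Adgrg3 separate the groups, while the other 4 receptors overlap.

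The other 4 receptors were dim. Adgre5 (CD97), the receptor for the complement regulator CD55, read 48, 52 and 54 with pMIG and 55, 53 and 70 with Blnk. The highest value belonged to Blnk 3, and it was the only array on which Adgre5 reached the array median. Its log2 difference of 0.20 (SE 0.12) came down to 0.07 without Blnk 3. Adgrg6 (Gpr126), known for its role in Schwann cell myelination, read 21, 25 and 21 with pMIG and 21, 22 and 29 with Blnk. Its difference was 0.09 (SE 0.14), and -0.05 without Blnk 3. Blnk 3 was again the highest array.

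Adgre1 (F4/80), the macrophage receptor, read 17, 19 and 19 with pMIG and 17, 18 and 22 with Blnk. Its difference was 0.04 (SE 0.11), and -0.07 without Blnk 3. Adgrg2 (Gpr64), best known from the male reproductive tract, read 19, 15 and 14 with pMIG and 14, 15 and 16 with Blnk. Here the highest array was pMIG 1, and the difference of -0.08 (SE 0.12) became 0.05 without it. These intensities were deposited as whole numbers, and 1 unit at the pMIG mean of Adgrg2 is worth 0.09 on the log2 scale, about as much as the difference itself. Of the 4 dim receptors, 3 had their highest value on Blnk 3. Whether such intensities stand for transcript at all cannot be told from these values, and a change could have gone unseen.

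Adgrg1 and Adgrg3 lie beside each other on mouse chromosome 8 with Adgrg5 before them, in the gene order of the GRCm38.p6 table, which was used for order only. The 3 protein-coding genes on either side of this cluster gave 5 measured neighbours, of which 1 fell and 0 rose by limma (unadjusted p under 0.05: 1 up, 1 down). The one that fell was Drc7, a component of the axonemal dynein regulatory complex and the gene next to Adgrg3. It read 73, 91 and 78 with pMIG and 53, 57 and 52 with Blnk. The groups did not overlap, though all Blnk values were below the array medians. The log2 difference was -0.57 (SE 0.096; limma adjusted p = 0.018). The call was lost without pMIG 3 (limma adjusted p = 0.0892), Blnk 1 (0.0911), Blnk 2 (0.0706) or Blnk 3 (0.0985), and over all alternatives it ranged from 0.00351 to 0.0985.

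The other neighbours did not pass. On the near side of Adgrg5, the RNA polymerase subunit Polr2c differed by 0.18 (SE 0.070, limma adjusted p = 0.273, brighter of 2 probes). Whether this probe matches the gene copy beside the cluster was not checked. The adaptor Dok4 differed by 0.05 (SE 0.15) and Ccdc102a by 0.06 (SE 0.13). Beyond Drc7, the kinesin Kifc3 stood at -0.13 (SE 0.12). The genes that passed in this stretch were thus Adgrg1, Adgrg3 and Drc7, which follow one another. Around Adgrg2, Adgrg6, Adgre1 and Adgre5, 21 of 24 neighbours were measured, and 0 passed in either direction by limma (unadjusted p under 0.05: 3 up, 3 down).

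**Figure D2:**
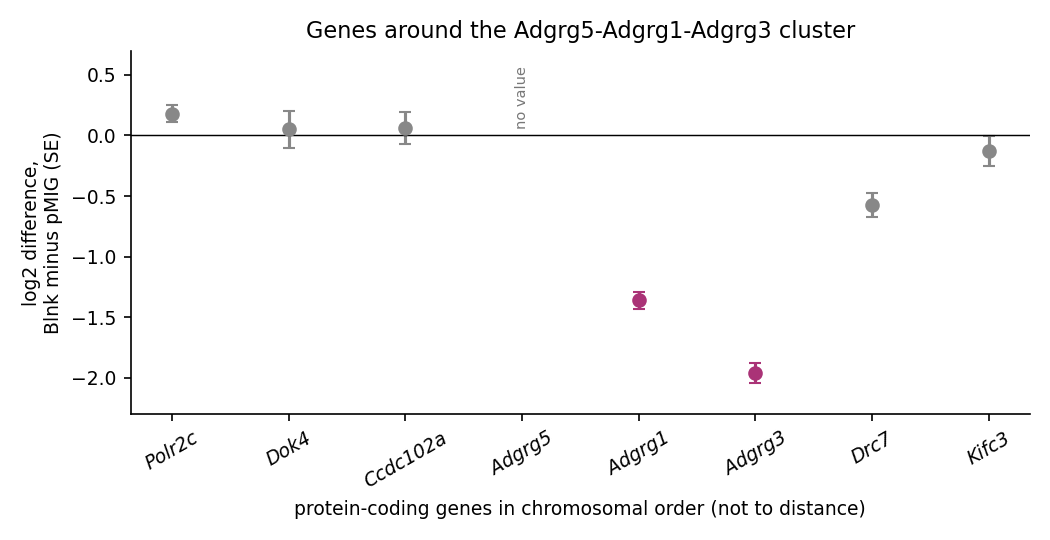
Log2 difference, Blnk minus pMIG (vertical axis, bars are SE of limma's fit), for protein-coding genes in chromosomal order around Adgrg5, Adgrg1 and Adgrg3, not drawn to distance. Adgrg1 (-1.36), Adgrg3 (-1.96) and Drc7 (-0.57) lie below 0, and Adgrg5 has no value. Genes without a measured probe, other than Adgrg5, are not drawn.

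The sequences just before the transcript starts of Adgrg3 and Adgrg1 are shown because these neighbours moved together. RefSeq gave 1 start for Adgrg3 and 2 for Adgrg1, all on the plus strand of GRCm38.p6. Each window holds 250 bases, 5′ to 3′, ending at the base before the start. Capitals mark matches to the motifs named below.
Adgrg3 chr8:95017442-95017691: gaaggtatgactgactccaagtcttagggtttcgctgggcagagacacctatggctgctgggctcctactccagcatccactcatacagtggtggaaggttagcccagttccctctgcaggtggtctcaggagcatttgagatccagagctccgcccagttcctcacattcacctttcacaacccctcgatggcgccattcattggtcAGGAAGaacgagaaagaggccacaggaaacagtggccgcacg
Adgrg1 first start chr8:94976859-94977108: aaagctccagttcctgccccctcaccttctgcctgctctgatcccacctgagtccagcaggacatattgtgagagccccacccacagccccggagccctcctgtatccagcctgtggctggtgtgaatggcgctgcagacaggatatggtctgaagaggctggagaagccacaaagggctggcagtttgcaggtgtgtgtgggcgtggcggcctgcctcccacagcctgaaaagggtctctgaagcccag
Adgrg1 second start chr8:94984149-94984398: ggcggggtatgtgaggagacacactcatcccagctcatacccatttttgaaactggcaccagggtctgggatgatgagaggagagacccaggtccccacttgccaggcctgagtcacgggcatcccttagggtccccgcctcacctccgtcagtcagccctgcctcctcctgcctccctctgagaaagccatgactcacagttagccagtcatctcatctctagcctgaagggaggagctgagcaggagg

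Both strands were searched for 5 short motifs of blood-cell transcription factors, chosen after the values were seen. None of them overlaps another motif in these windows. AGGAAG, of ETS type, was found in the Adgrg3 window, beginning 42 bases before the start, and in neither Adgrg1 window. It occurs in 29.5% of all 32851 promoter windows of that length. The RUNX-type motif TGTGGT, held by 14% of all windows, was in none of the 3. The same was true of the GATA-type motif AGATAA (9.99% of windows). It was also true of the E-box CAGCTG (13% of windows) and of the MYC-type E-box CACGTG (6.02% of windows). The windows had a GC content of 55.2% for Adgrg3 and of 60.8% and 59.2% for Adgrg1, with 7, 4 and 4 CpG dinucleotides. The windows of the dim receptors Adgrg2 and Adgrg6 had 75.6% and 69.6% GC with 26 and 32 CpGs. Those of Drc7 and of Adgrl2, described below, which both fell, had 46.4% and 37.6% GC with 3 CpGs each. That of Adgrg5, not analysed here, had 58.8% GC with 4 CpGs. Among these further windows, the ETS-type motif, read as CTTCCT, was also in those of Adgrg5 and Adgrl2. The E-box CAGCTG was in those of Adgrg2 and Adgrg6, and the RUNX-type motif, read as ACCACA, in that of Adgrg5. GC content over all windows was not taken, so no contrast is drawn. A match is a description of letters and no evidence of binding.

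The rest of the adhesion family was examined in the same fit. It includes Adgrg4, Adgrg7 and Adgre4, subfamily members outside the list of 7. Of 23 further receptors, 22 were measured, and 1 fell and 0 rose by limma (unadjusted p under 0.05: 0 up, 2 down). Their median log2 difference was -0.03, beside 0 over all genes. The one that fell was Adgrl2, a latrophilin that binds teneurins and FLRT proteins. Its brightest probe read 827, 876 and 883 with pMIG and 517, 570 and 508 with Blnk. The groups were apart, and the log2 difference was -0.70 (SE 0.075; limma adjusted p = 0.00229). It passed with every array left out, at a limma adjusted p of 0.011 to 0.0239.

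Adgrl2 was read by 8 single-gene probes. On 6 of them all Blnk arrays lay below all pMIG arrays, and on the other 2 the groups overlapped. The differences of the 8 probes ran from -0.76 to -0.15, so all pointed the same way with unequal size. The steepest, at -0.76, was a dim probe with overlapping groups, at 44, 57 and 72 with pMIG and 25, 50 and 30 with Blnk. Counting both lists, 3 of 28 measured adhesion receptors were lower with Blnk, beside 1.1% of all genes. Among these 3, the falls of Adgrg1 and Adgrg3 were known when the family was put forward, so nothing is read from this count.

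The other 21 receptors did not pass. Celsr1, a planar polarity cadherin, was bright at 808, 801 and 766 with pMIG and 708, 777 and 676 with Blnk. Its groups overlapped, and its difference of -0.14 (SE 0.076) did not pass (limma adjusted p = 0.464). Adgrl1, another latrophilin and the gene next to Adgre5, differed by 0.01 (SE 0.083; limma adjusted p = 0.975). Of the 22 receptors, 15 lay below the array median on all 6 arrays.

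**Figure D3:**
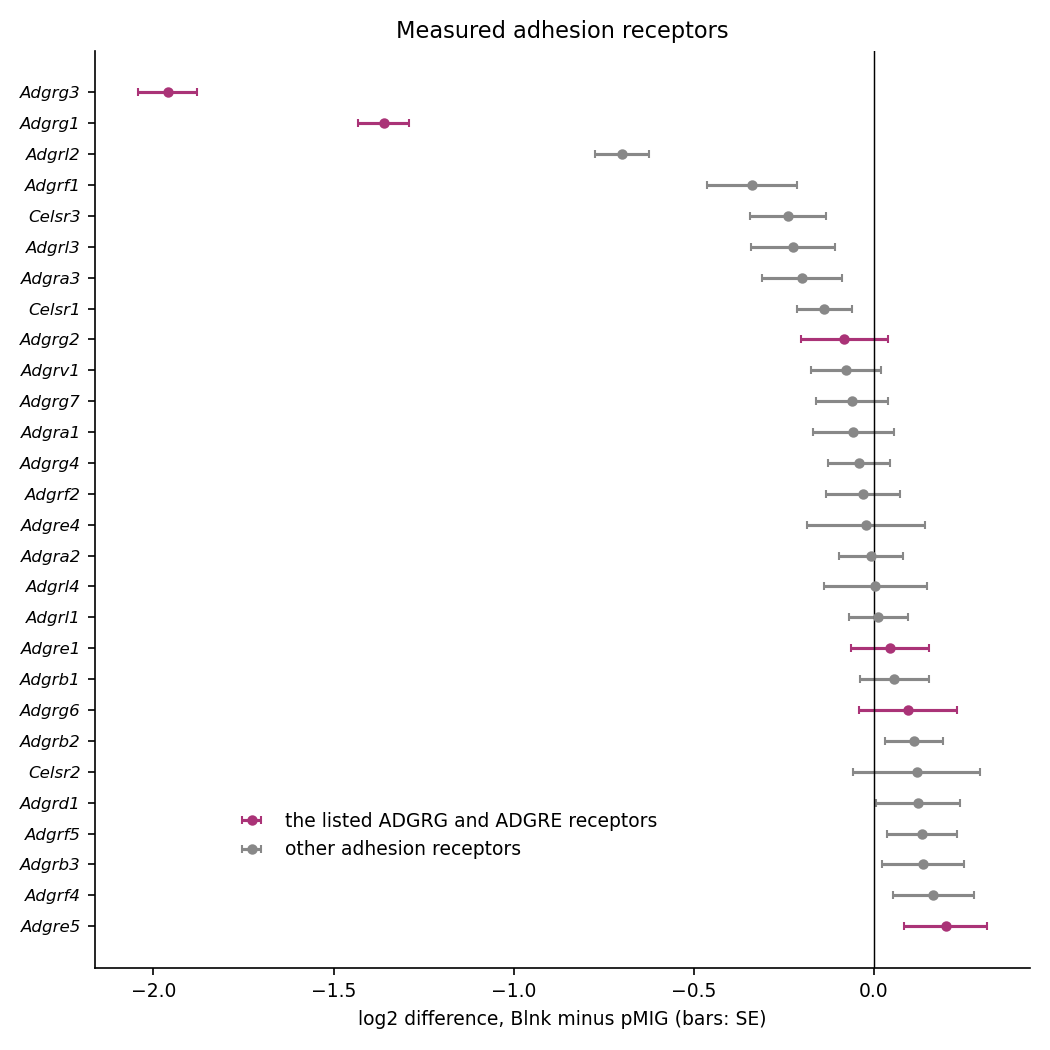
Log2 difference, Blnk minus pMIG (horizontal axis, bars are SE of limma's fit), of the 28 measured adhesion receptors, with the 6 measured receptors of the list in purple and the others in grey. Adgrg3, Adgrg1 and Adgrl2 lie at -1.96, -1.36 and -0.70, apart from the rest.

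Among genes listed as ligands and membrane partners of adhesion receptors, 1 of 13 rose and 1 fell by limma (unadjusted p under 0.05: 2 up, 3 down). Their median was 0.02. The one that rose was Cd55, the ligand of ADGRE5 and a brake on complement. It read 57, 70 and 83 with pMIG and 159, 178 and 178 with Blnk. All Blnk arrays were above all pMIG arrays (log2 difference 1.31, SE 0.13; limma adjusted p = 0.00188), and the call held with every array left out (0.00482 to 0.0273). Its receptor Adgre5 stood at 0.20 (SE 0.12), as given above. Other ligands did not pass. Col3a1, the collagen ligand of ADGRG1, differed by 0.06 (SE 0.12), and Tgm2, its transglutaminase ligand, by 0.03 (SE 0.14). The tetraspanin Cd81, which associates with ADGRG1, was bright at 2718 to 2978 and differed by 0.05 (SE 0.068).

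Plxdc1, a membrane protein with a plexin-type domain, was the member that fell, and its pairing with any of these receptors was not tested. It read 86, 78 and 66 with pMIG and 47, 45 and 51 with Blnk (log2 difference -0.68, SE 0.11; limma adjusted p = 0.0144). The groups were apart but the Blnk arrays were below the array medians. Of the single arrays left out, the call held without pMIG 3 (limma adjusted p = 0.0191) and was lost without pMIG 1 (0.0536), pMIG 2 (0.0697), Blnk 1 (0.0841), Blnk 2 (0.0915) or Blnk 3 (0.0567). Over all alternatives it ranged from 0.00262 to 0.0915. Its relative Plxdc2 stood at -0.40 (SE 0.19; limma adjusted p = 0.371). Prnp, whose product activates ADGRG6, stood at -0.30 (SE 0.096; limma adjusted p = 0.175).

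Downstream of the receptors, most transcripts did not pass. Among G protein alpha subunits 0 of 12 rose and 1 fell by limma (unadjusted p under 0.05: 2 up, 2 down), with a median of 0.0034. Gnao1, the alpha subunit of Go, which ADGRG3 is known to use, read 145, 145 and 150 with pMIG and 93, 105 and 109 with Blnk. The arrays of the groups were apart (log2 difference -0.52, SE 0.080; limma adjusted p = 0.0119). The call was lost without pMIG 1 (limma adjusted p = 0.0527), pMIG 2 (0.0542), pMIG 3 (0.0796) or Blnk 2 (0.0595), and ranged from 0.00223 to 0.0796 over all alternatives. Gna12 and Gna13, the subunits that carry the ADGRG1 signal, differed by -0.02 (SE 0.067) and 0.03 (SE 0.082).

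Of receptor kinases and arrestins, 0 of 5 rose and 0 fell by limma (unadjusted p under 0.05: 0 up, 1 down), with a median of 0.04. Grk6 and Arrb2 were the brightest, at 0.05 (SE 0.064) and -0.05 (SE 0.074). Of RGS proteins, which shorten G protein signals, 0 of 9 rose and 0 fell by limma (unadjusted p under 0.05: 1 up, 1 down), with a median of 0.12. The brightest, Rgs18 and Rgs19, stood at 0.20 (SE 0.094; limma adjusted p = 0.371) and 0.12 (SE 0.080; limma adjusted p = 0.552).

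**Figure D4:**
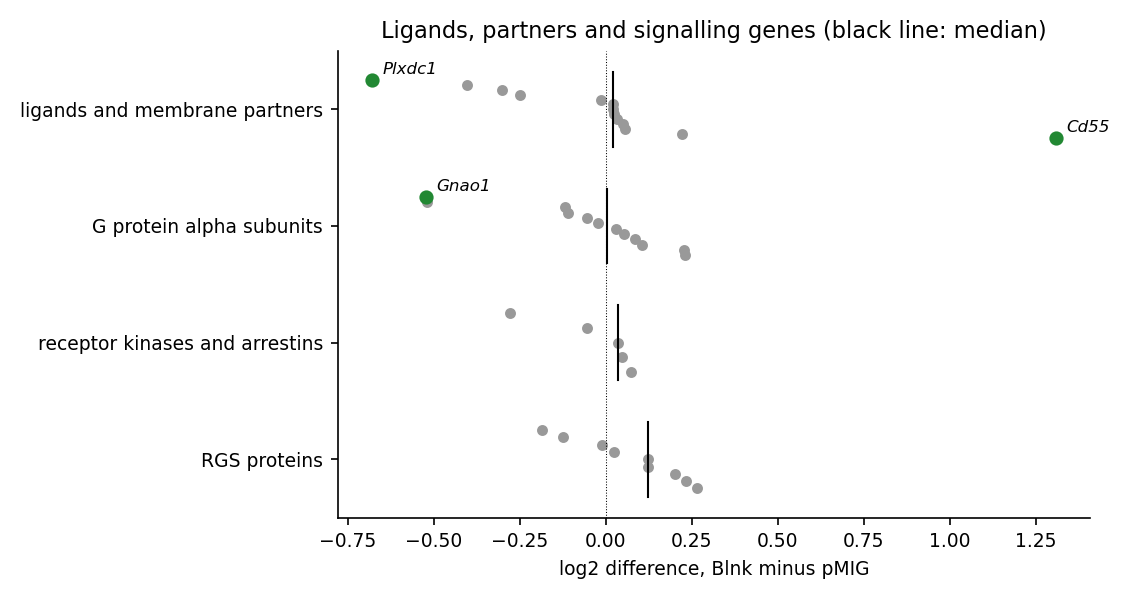
Log2 difference, Blnk minus pMIG (horizontal axis), of each measured gene in 4 lists of ligands, partners and signalling genes, with the list median as a black line and genes past the adjusted p threshold in green. Cd55 (1.31) rose, Plxdc1 (-0.68) and Gnao1 (-0.52) fell, and the other genes did not pass.

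The transcripts most like these receptors over the 6 arrays were sought among 10363 other genes with a mean log2 intensity of 6 or more. The arrays fall into 2 groups, so for Adgrg3 and Adgrg1 a high correlation mainly reflects the group difference. Every r is given as a description with n = 6. For Adgrg3 the closest were Slc45a4 (r = 0.9997), a solute carrier, Gfra1 (r = 0.9990), a receptor for GDNF, and Adgrg1 (r = 0.9988). Slc45a4 went from 501, 499 and 502 to 395, 388 and 386 (log2 difference -0.36, SE 0.061), so a like pattern came with a difference of another size. Gfra1 went from 1037, 1050 and 1076 to 524, 464 and 480 (log2 difference -1.11, SE 0.073). For Adgrg1 the closest were Slc45a4 (r = 0.9989), Adgrg3 and the ETS factor Erg (r = 0.9975). Erg went from 597, 576 and 623 with pMIG to 159, 152 and 162 with Blnk.

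For Adgre5 the closest were Trappc5 (r = 0.983), Scpep1 (r = 0.980) and Grb2 (r = 0.979), none of which passed the threshold. All of these, like Adgre5, were highest on Blnk 3. After group means were taken out, r with Adgre5 over the 6 arrays was 0.996 for Trappc5, 0.972 for Scpep1 and 0.994 for Grb2. Likewise, Slc45a4 correlated at r = 0.99 with Adgrg3 and 0.78 with Adgrg1, and Gfra1 at 0.90 with Adgrg3. Erg correlated with Adgrg1 at r = 0.36, and Adgrg1 with Adgrg3 at r = 0.79. All 4 dim receptors ran the other way. With Adgrg1 and Adgrg3 in turn, r was -0.89 and -0.71 for Adgrg6 and -0.61 and -0.64 for Adgre1. It was -0.48 and -0.40 for Adgre5 and -0.42 and -0.40 for Adgrg2. Blnk 3 was the lowest array for Adgrg1 (184) and Adgrg3 (297) and the highest for Adgrg6, Adgre1 and Adgre5. What this array adds to these r values was not tested, and no opposing relation is read from them. Adgre5, Adgre1 and Adgrg6 correlated with one another at r = 0.82 to 0.94, where Blnk 3 is the common high array.

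The labelled cell type and the transfer of Blnk were checked in the same arrays. Blnk itself read 972, 926 and 1013 with pMIG and 2714, 3342 and 3022 with Blnk, so the labels and the transcript go together. Whether this probe lies in the deleted part of the gene is unknown here, and the level with pMIG is therefore no check of the knockout. Of 9 measured pre-B markers, 8 were well above the array medians in all samples, up to 10793 for Igll1, and Dntt was dim at 20 to 28. Blnk, the transferred gene, is among these 8, and its level is no check of the cell type. Beside Blnk, Cd79a rose by 0.31 (limma adjusted p = 0.0468, and 0.0678 to 0.151 with 1 array left out). Its call was also lost after repeated quantile normalization (limma adjusted p = 0.0599), with arrays centred on their medians (0.102) and with the replicate number as a block (0.176). Vpreb1 fell by 0.68 (limma adjusted p = 0.00976, but 0.0502 without pMIG 2 and 0.0688 without pMIG 3).

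Markers of other cells that carry these receptors were mostly dim. Summed over 11 myeloid markers, intensity was 524 to 542 with pMIG and 647 to 726 with Blnk, ranges that did not overlap. Without Fcgr1 and Cd68, left out after their values were seen, the other 9 markers summed to 279 to 306 with pMIG and 295 to 311 with Blnk, and these ranges overlapped. In that list 1 gene rose and 0 fell by limma (unadjusted p under 0.05: 2 up, 0 down). It was Fcgr1, the high-affinity IgG receptor, from 135, 160 and 139 to 235, 258 and 233 (log2 difference 0.74, SE 0.089; limma adjusted p = 0.00377). Cd68 stood at 0.59 (SE 0.15; limma adjusted p = 0.0866), and the other 9 myeloid markers, Csf1r, Itgam and Lyz2 among them, were below the array medians on all arrays. The macrophage receptor Adgre1, at 17 to 22, was dim in both groups. The 9 markers of NK and T cells summed to 424 to 520 with pMIG and 437 to 540 with Blnk, with 0 higher and 0 lower by limma (0 and 0 unadjusted). Among them Cd8a, at 134 to 255, and Cd3e, at 73 to 91, were above the array medians on all arrays, with overlapping groups. The 7 markers of stem and progenitor cells summed to 264 to 294 and 260 to 288, with 0 higher and 0 lower (0 and 0 unadjusted), all dim. The part of such cells in the receptor values was not tested.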

How the data were processed

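Total RNA of 6 samples was measured on 1 Affymetrix array each. The submitters' processing notes name RMA, without a version. The deposited intensities are whole numbers from 3 to 22187, so they are probably RMA output put back on a linear scale and rounded. The planned test assumed log2 values, so log2 was taken first, with nothing added, no low-value filter and no added normalization. Of 35421 probes, 21789 had 1 symbol in the platform annotation, 1621 had several and 12011 were not listed. The brightest single-gene probe stood for each of 19938 genes. A probe can also read close relatives of its gene.

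Groups were fitted with limma 3.58.1 (R 4.3.3; lmFit, then eBayes) with group as sole term and two-sided Benjamini-Hochberg adjusted p-values over all genes, after a check on simulated data. The number of arrays limits the precision. The lowest within-group r was 0.9951, taken across genes, which are no replicates. The receptors, lists and motifs were chosen with earlier results of these data known. Named were all receptors, Blnk, list members past the threshold (at most 4) or else the 2 or 3 brightest, genes beside the cluster, and for Adgrg3, Adgrg1 and Adgre5 the 3 genes of highest r. Ligands, Gna12, Gna13, Cd68 and other genes beyond this rule were named after their values were seen. Neighbours were taken among protein-coding genes, a restriction added later. Promoter sequences are RefSeq's (GRCm38.p6), and the promoter table used here had entries for 5 of the 7 receptors. Some planned items are not reported here.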

Additional observations from a re-analysis of the deposited data

How the results depend on the processing

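The receptors were put forward with their differences known, so their ranges over the 14 alternatives, 6 of which left out 1 array, describe these arrays and support nothing. The Adgrg1 difference ranged from -1.40 to -1.29 (the latter with 16 added to the intensities) and that of Adgrg3 from -2.03 to -1.91. Leaving out dim genes removed 3 of the 6 receptors and kept Adgrg1, Adgrg3 and Adgre5. Over all genes, 500 rose and 220 fell, against 411 and 327 after repeated quantile normalization, 417 and 291 with arrays centred on their medians, and 807 and 421 without dim genes. Leaving out 1 array gave 195 to 304 higher and 72 to 133 lower.

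With the replicate number as a block, 208 genes rose and 81 fell, and of the signalling and partner genes 0 fell, in place of 2 (limma adjusted p = 0.0831 for Plxdc1 and 0.0617 for Gnao1). Samples with the same number deviated together at r = -0.19, 0.06 and -0.12 over genes, so the numbers were not taken to pair samples. Leaving out 1 array gave 0 to 2 of these genes lower. With an intensity trend 2 of them rose, in place of 1. Of the chromosomal neighbours, 1 fell and 0 rose as reported. There were 2 lower after quantile normalization, with 16 added or with array weights, 3 lower without dim genes or with the trend, and 0 to 1 with 1 array left out. Higher were 1 without dim genes, 1 with 16 added and 2 with the trend. The cause was not tested. Depth is not defined for arrays, and the receptors below the array medians carry little information on a change.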
